A study of Mus musculus with 6 samples.

Results

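A set of 10 heat shock protein genes was examined in injured mouse kidney cortex with and without added renal congestion: Hspa1a, Hspa1b, Hspa8, Hsp90aa1, Hsp90ab1, Hspb1, Dnajb1, Hspd1, Hspe1 and Hsph1. They were chosen by symbol, and all 10 were found among the 26971 features of the count table. The 6 libraries came from the cortex of kidneys of male C57BL/6 mice taken 1 day after surgery, with 3 libraries labelled IRI (replicates CLK_IRI_1 to CLK_IRI_3) and 3 labelled IRI with IVCC (replicates Cong_IRI_1 to Cong_IRI_3). All 6 kidneys had thus undergone IRI, which commonly stands for ischaemia-reperfusion injury, a period without blood flow followed by its return. The labels do not expand CLK or IVCC and give no age, and the design text describes the comparison as IRI kidney with or without renal congestion. Uninjured kidneys were not analysed here, so no level below says whether injury itself raised or lowered a gene. Whether the libraries of a group are from different mice is not stated; p-values therefore refer to the spread among these 6 libraries, which may be technical.

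Heat shock proteins are molecular chaperones, which hold, fold or refold other proteins and keep damaged ones from clumping. HSP70 chaperones bind exposed stretches of unfolded protein with the help of J-domain partners and nucleotide exchange factors. HSP90 chaperones act later on partly folded clients such as kinases and hormone receptors, small heat shock proteins hold unfolded proteins without using ATP, and the mitochondrial chaperonin folds proteins imported into mitochondria. Some of these genes are active in nearly every cell, whereas others are switched on by heat shock factor HSF1, which binds heat shock elements, short repeats of GAA alternating with its reverse complement TTC. Renal ischaemia, which depletes tubular cells of ATP, is a classical setting in which inducible heat shock proteins have been studied.

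To make these elements visible, 1 promoter window is shown of each member that held one, apart from Hspd1, whose element is printed with that of Hspe1. Windows ran from 250 bases before to 50 bases after an annotated start, were taken from RefSeq in the build GRCm38.p6, and were found for 7 of the 10 members; those of Hspa8, Hsp90aa1 and Hsp90ab1 were not analysed here. The search used GAANNTTCNNGAA and TTCNNGAANNTTC as 3-unit elements, which are each other's reverse complement, and GAANNTTC and TTCNNGAA as 2-unit elements, each its own reverse complement, so that both strands were covered. A 3-unit element contains both 2-unit forms. Capitals mark 3-unit elements where a window held any, and 2-unit elements otherwise.
Hspa1a, chr17:34972107-34972406, minus strand: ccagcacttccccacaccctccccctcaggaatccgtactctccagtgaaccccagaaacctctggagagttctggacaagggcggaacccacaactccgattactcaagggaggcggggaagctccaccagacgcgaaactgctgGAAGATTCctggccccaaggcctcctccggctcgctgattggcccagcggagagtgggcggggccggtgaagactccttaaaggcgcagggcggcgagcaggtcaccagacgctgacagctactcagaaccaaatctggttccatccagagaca
Hspa1b, chr17:34959189-34959488, minus strand: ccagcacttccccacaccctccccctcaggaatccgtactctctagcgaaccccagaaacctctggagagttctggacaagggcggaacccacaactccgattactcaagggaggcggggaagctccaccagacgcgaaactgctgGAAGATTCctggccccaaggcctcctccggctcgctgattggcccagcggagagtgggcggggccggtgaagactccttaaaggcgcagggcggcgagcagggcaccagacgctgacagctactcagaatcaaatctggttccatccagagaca
Hspb1, chr5:135887669-135887968, plus strand: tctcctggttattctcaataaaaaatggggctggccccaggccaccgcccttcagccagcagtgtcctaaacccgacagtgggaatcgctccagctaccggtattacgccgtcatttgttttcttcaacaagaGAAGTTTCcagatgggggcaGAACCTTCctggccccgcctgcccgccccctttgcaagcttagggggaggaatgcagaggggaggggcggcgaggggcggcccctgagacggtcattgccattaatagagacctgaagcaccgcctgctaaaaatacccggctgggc
Hspe1, chr1:55087898-55088197, plus strand: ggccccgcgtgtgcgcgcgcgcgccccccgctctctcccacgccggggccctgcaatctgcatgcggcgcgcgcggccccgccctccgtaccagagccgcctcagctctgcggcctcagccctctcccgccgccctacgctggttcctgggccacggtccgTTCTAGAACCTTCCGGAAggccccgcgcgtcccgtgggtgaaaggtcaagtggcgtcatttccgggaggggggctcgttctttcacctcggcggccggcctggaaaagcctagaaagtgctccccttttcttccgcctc
Hsph1, chr5:149636266-149636565, minus strand: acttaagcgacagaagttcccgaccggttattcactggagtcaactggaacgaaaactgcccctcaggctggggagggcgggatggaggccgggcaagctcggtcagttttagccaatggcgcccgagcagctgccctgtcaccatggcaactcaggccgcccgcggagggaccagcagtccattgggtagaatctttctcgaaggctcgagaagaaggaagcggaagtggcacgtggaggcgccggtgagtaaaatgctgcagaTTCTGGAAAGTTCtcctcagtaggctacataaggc
The windows of Hspa1a and Hspa1b differed at 4 of 300 bases, and each held a single 2-unit element, beginning 104 bases before the start. Hspd1 and Hspe1 lie head to head, and 285 bases of the Hspe1 window also belong to a window of Hspd1. The capitals of Hspe1, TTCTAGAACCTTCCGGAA, are a run of 4 units that begins 89 bases before its start, and read on the other strand as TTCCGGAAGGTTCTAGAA they begin 144 bases before a start of Hspd1. Hsph1 held a 3-unit element, TTCTGGAAAGTTC, that begins at base 16 after the start shown and was also in the window of its other start. Hspb1 held a pair of 2-unit elements. Both windows of Dnajb1 and the other window of Hspd1, which are not shown, held neither form. In all, 3 of the 7 members with a window held a 3-unit element and 6 held a 2-unit element, against 0.662% and 17.0% of the 27025 genes with such a window. These members are not separate cases, as Hspd1 and Hspe1 share their element and the windows of Hspa1a and Hspa1b are near copies. Over all 32851 windows the shares were 0.603% for a 3-unit and 15.1% for a 2-unit element. A match describes letters in a window and says nothing of binding in these kidneys.

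Levels are given as CPM, the counts of a gene brought to a common library total, scaled by the TMM method, which also corrects for library composition. All 10 members passed the filter on low counts and were among the 14274 genes tested. Total counts per library ranged from 10865860 to 14350425, and the 10 members held 0.501% to 0.641% of them. Markers of the proximal tubule summed to 56989, 46462 and 33107 CPM in IRI replicates 1, 2 and 3 and to 28236, 28237 and 31424 CPM in the congested ones, while the lymphocyte, adrenal cortex and skeletal muscle lists summed to at most 3.07 CPM. The adipocyte list summed to 7.48, 0.854 and 2.56 CPM in the IRI replicates and to 6.01, 18.2 and 3.92 CPM in the congested ones. Both libraries numbered 1 stood apart: the 6 tubular injury markers (Havcr1, Lcn2, Spp1, Krt20, Clu and Sox9) summed to 46913 and 64279 CPM there, against 6143 to 17989 CPM in the other 4, and the 6 neutrophil markers to 74.2 and 222 CPM, against 4.94 to 16.1 CPM. Their part in the results below was not tested. In a piece of tissue, more cells of a type and more RNA per cell cannot be told apart.

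No heat shock protein gene was called different between congested and non-congested IRI kidney. In edgeR's quasi-likelihood test 0 of the 10 members passed an adjusted p of 0.05, beside 0.0% of all tested genes, and their adjusted p-values ran from 0.933 to 0.969. At an unadjusted p under 0.05 there were again 0 members, against 2.0% of all genes, and DESeq2 and limma-voom also called 0 members. The groups were free of overlap for 0 members, against 6.49% of all genes. The log2 fold changes of congested over IRI kidney lay below 0 for 9 of 10 members, where 50.4% of all tested genes lay below 0, with a median of -0.19 against 0.00 for all genes and a range from -0.55 for Hspe1 to 0.17 for Hsp90aa1. The members' median was -0.11 with 7 of 10 below 0 without IRI replicate 1, and -0.28 with 9 of 10 without IRI replicate 3. Under total-count scaling it was -0.09 with 7 of 10 below 0, where the median of all tested genes rose to 0.10. It was -0.11 with 8 of 10 after each library's trend over transcript length and GC content was taken out, against -0.01 for all genes. When the same test took the replicate number as a block, 0 of 10 members and 0.0% of all genes were again called, 0 members and 7.06% of genes had an unadjusted p under 0.05, and the members' median was -0.16 (-0.07 without number 1, -0.11 without number 2 and -0.34 without number 3).

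Cell type markers also differed between the groups by value, with 0 of them called. The summed proximal tubule markers of every congested library lay below those of every IRI library, although 6 of the 9 tested genes had log2 fold changes above 0 and their median was 0.03 (-0.15, with 6 of 9 below 0, once the length and GC trend was removed). All 5 tested neutrophil markers lay above 0 (median 1.73; 1.80, 1.38 and 0.57 within replicates 1, 2 and 3), and all 5 had an unadjusted p under 0.05 with the block. All 5 collecting duct markers lay below 0 (median -0.52), 3 of them at an unadjusted p under 0.05 with the block. All 4 thick ascending limb markers lay below 0 (median -0.33, but 0.36 within replicate 1). All 4 podocyte markers lay above 0 (median 0.09), as did 6 of 8 macrophage markers (median 0.17). Neither kept 1 direction within replicates 1, 2 and 3. Podocyte medians there were 0.01, 0.44 and -0.17, and macrophage medians 0.70, -0.04 and -0.06. Endothelial markers were split, with 3 of 6 above 0. Of 6 tubular injury markers 4 lay below 0 (median -0.09), but with the block 2 did (median 0.20). Their sum was higher in the congested library of every replicate number. Of 5 red cell markers 4 lay below 0 (median -0.20), but 0 did with the length and GC trend removed (median 0.29). The part of these markers in the members' differences was not tested.

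**Figure D1:**
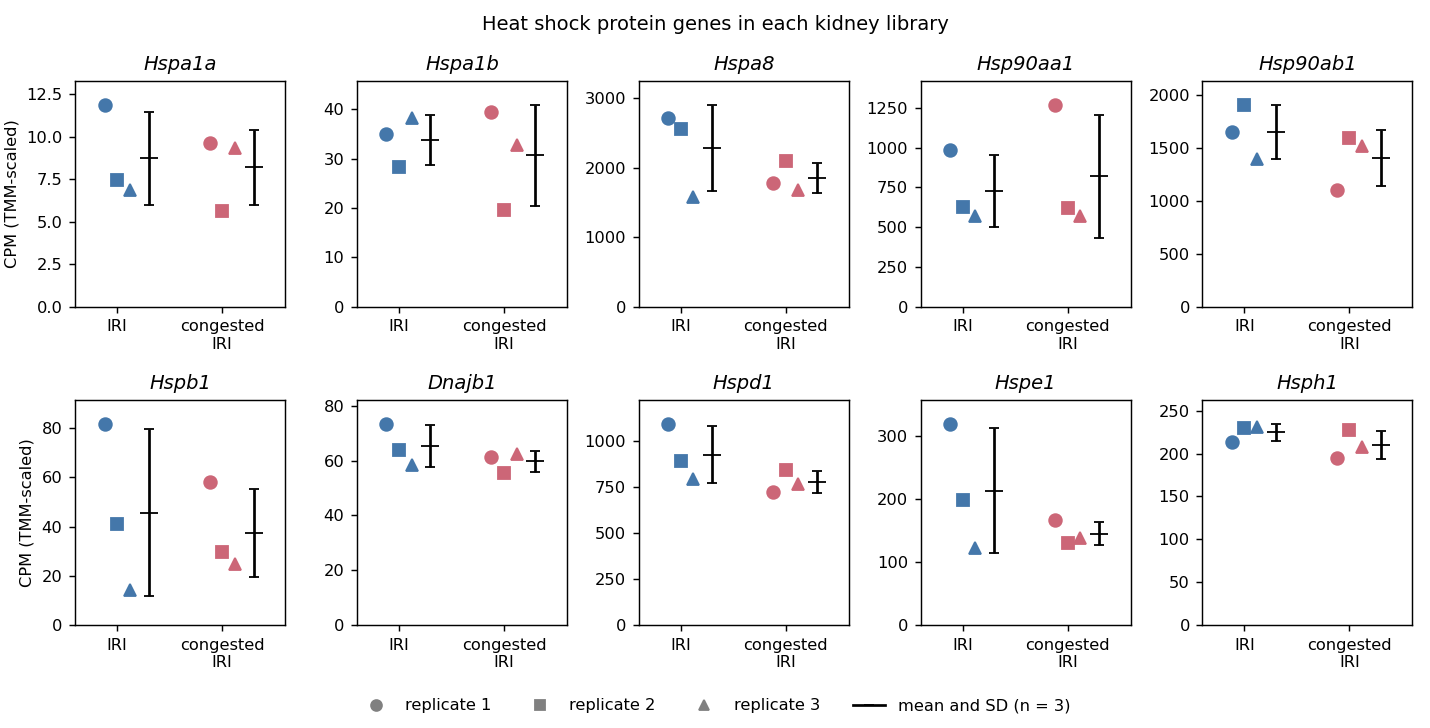
Each panel plots 1 gene, with TMM-scaled CPM on the vertical axis from 0 and the 2 groups on the horizontal axis; symbols give the replicate number, and the black mark and bar give mean and SD of the 3 libraries. The groups overlap in every panel, and IRI replicate 1 is the highest library for 6 of the 10 genes.

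Among the HSP70 genes, Hspa8 encodes HSC70, the constitutive cytosolic form that also uncoats clathrin vesicles and targets proteins to lysosomes. IRI replicates 1, 2 and 3 held 2717, 2557 and 1573 CPM of it, and the congested replicates 1784, 2094 and 1677 CPM. Replicates 1 and 2 of the IRI group were above every congested library, while IRI replicate 3 was below all of them. The mean of the IRI group was 2283 ± 619.8 CPM (SD, n = 3) and that of the congested group 1851 ± 217 CPM (SD, n = 3), and the log2 fold change was -0.30 (standard error 0.29, 95% interval -0.99 to 0.38, edgeR adjusted p = 0.933). Leaving out IRI replicate 1 gave -0.15, and leaving out IRI replicate 3 gave -0.51.

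Hspa1a and Hspa1b encode the stress-inducible HSP70, which is scarce in unstressed cells and accumulates after heat or ischaemia. They lie next to each other on chromosome 17 of GRCm38, from 34969190 to 34972156 and from 34956436 to 34959238 on the minus strand, and each is a single exon. Of all 100-base stretches of the Hspa1a transcript, 47.1% were also in that of Hspa1b, so reads could be split between them or dropped, and the counts of each are uncertain. Hspa1a also shares 564 exonic bases with Gm20481 on the opposite strand. Hspa1b stood at 34.9, 28.3 and 38.2 CPM in IRI replicates 1, 2 and 3 and at 39.6, 19.5 and 32.9 CPM in the congested ones. Its lowest and its highest library were thus both congested, and the log2 fold change was -0.14 (standard error 0.29, edgeR adjusted p = 0.949).

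Counts of Hspa1a were lower, at 78 to 149 reads per library. It stood at 11.9, 7.43 and 6.89 CPM in the IRI replicates and at 9.60, 5.64 and 9.34 CPM in the congested ones, and the groups again overlapped (log2 fold change -0.09, standard error 0.33, edgeR adjusted p = 0.969). The 2 genes together made 25.2 to 49.2 CPM, and their summed counts had a log2 fold change of -0.13 without and -0.17 with the replicate block, the latter fit added after the data were seen. The sign of both values hung on single libraries: without congested replicate 2 they were 0.12 for Hspa1a and 0.10 for Hspa1b, and without IRI replicate 1 that of Hspa1a was 0.20. For Hspa1a the sign also turned with total-count scaling, to 0.03, a scaling that moved the median of all genes by 0.10.

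The partners of HSP70 varied least. Dnajb1 encodes HSP40, the J-domain protein that delivers clients to HSP70 and starts its ATP cycle. It lay at 73.5, 64.0 and 58.5 CPM in the IRI replicates and at 61.4, 55.4 and 62.4 CPM in the congested ones, a log2 fold change of -0.13 with a 95% interval of -0.56 to 0.30 (edgeR adjusted p = 0.935), or -0.03 when IRI replicate 1 was left out, -0.20 when IRI replicate 3 was, and -0.08 when congested replicate 2 was. Hsph1 encodes HSP110, a nucleotide exchange factor of HSP70 that helps to dissolve aggregates. Its 6 libraries lay within 1.18-fold of each other, the narrowest range of the 10 members. They held 213, 230.4 and 231 CPM in IRI and 195, 227 and 208 CPM in congested kidney, and the log2 fold change was -0.10 (95% interval -0.55 to 0.35, edgeR adjusted p = 0.948), or 0.00 with total-count scaling. It was -0.05 without congested replicate 1 and -0.16 without congested replicate 2. These 2 intervals were the narrowest of the 10.

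The HSP90 pair had differences of opposite sign. Hsp90aa1 encodes the inducible cytosolic form and Hsp90ab1 the constitutive one. Hsp90aa1 stood at 982, 629 and 568 CPM in IRI and at 1266, 621 and 568 CPM in congested replicates 1, 2 and 3. Libraries of the same number were nearly equal in replicates 2 and 3, and both libraries numbered 1 were above the other 4. Its log2 fold change was 0.17 (standard error 0.39, edgeR adjusted p = 0.953), and -0.29 without congested replicate 1.

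Hsp90ab1 lay at 1650.15, 1906 and 1400.0 CPM in IRI and at 1099, 1596 and 1516 CPM in congested kidney. The library labelled congested replicate 1, highest for Hsp90aa1, was the lowest for Hsp90ab1. The log2 fold change was -0.23 (standard error 0.27, edgeR adjusted p = 0.933), and -0.09 without congested replicate 1 and -0.12 without IRI replicate 2. Of the counts of both genes, Hsp90aa1 took 53.5% in congested replicate 1 and 37.3% in IRI replicate 1, against 24.8% to 28.9% in the other 4 libraries.

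Hspb1 encodes HSP27 (HSP25 in mice), a small heat shock protein that binds actin filaments and is made by injured tubules. It varied most of the 10, 5.72-fold between its highest and lowest library. IRI replicates 1, 2 and 3 held 81.8, 40.9 and 14.3 CPM, and congested replicates 58.0, 29.7 and 24.7 CPM. The highest and the lowest library were both IRI, and in each group replicate 1 was the highest. The log2 fold change was -0.29 (standard error 0.60, 95% interval -1.68 to 1.11, edgeR adjusted p = 0.949). Without IRI replicate 1 it was 0.45 and without congested replicate 1 it was -0.75. With the length and GC trend removed it was 0.20; its longest transcript has 930 bases, against a median of 3.28 kb over tested genes.

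Hspd1 and Hspe1 encode HSP60 and its lid HSP10, the chaperonin of the mitochondrial matrix, and share the promoter region printed above. Their annotated exons overlap by 112 bases on opposite strands, and the strand setting of the counting is not given in the sources used here. Hspd1 lay at 1093, 891 and 791 CPM in IRI and at 724, 842 and 763 CPM in congested kidney. Its means were 925 ± 154 and 776 ± 60.2 CPM (SD, n = 3 each), and the log2 fold change was -0.25 (standard error 0.24, 95% interval -0.81 to 0.30, edgeR adjusted p = 0.933), or -0.11 without IRI replicate 1.

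Hspe1 had the largest difference among the members. Its 3 IRI libraries held 319, 199 and 121 CPM and its congested ones 166, 131 and 138 CPM. IRI replicates 1 and 2 were above every congested library, and IRI replicate 3 was the lowest of all. The log2 fold change was -0.55 (standard error 0.35, 95% interval -1.38 to 0.27, edgeR adjusted p = 0.933), and -0.46 with the replicate block (standard error 0.25, 95% interval -1.02 to 0.11, edgeR adjusted p = 0.577). With the length and GC trend removed it was -0.14, and its longest transcript has 964 bases. Without IRI replicate 1 it was -0.13 and without IRI replicate 3 it was -0.83. Counts of Hspe1 were 15.3% to 29.2% of those of Hspd1, with the lowest share in IRI replicate 3 and the highest in IRI replicate 1.

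**Figure D2:**
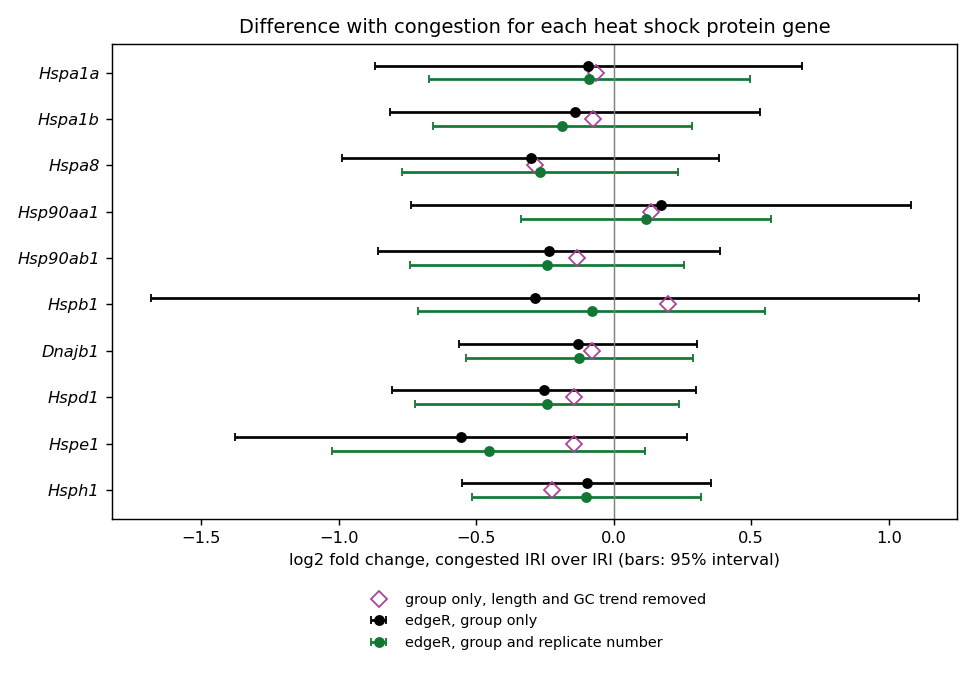
The horizontal axis gives the log2 fold change of congested over IRI kidney for each gene; filled points with 95% intervals are edgeR fits of the group alone and of the group with the replicate block, and open diamonds are the fit with a length and GC trend removed. Every interval includes 0, 9 of 10 points of the group-only fit lie below 0, and the diamonds of Hspb1 and Hspe1 stand farthest from their points.

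Within equal replicate numbers the direction depended on the number. The congested library was lower for 8 of 10 members in replicate 1 (49.7% of all tested genes), for 10 of 10 in replicate 2 (49.5%) and for 3 of 10 in replicate 3 (50.3%). The members' median log2 differences were -0.40, -0.27 and 0.09 in the same order, where the medians of all genes were 0.00, 0.01 and 0.00. Only Hspd1 and Hsph1 kept 1 direction in all 3 numbers, which makes 2 of 10 members against 26.1% of all genes. Hspd1 differed by -0.59, -0.08 and -0.05 and Hsph1 by -0.13, -0.02 and -0.15.

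The spread between numbers was widest for Hspe1 and Hspb1. Hspe1 differed by -0.94, -0.60 and 0.19 in replicates 1, 2 and 3, and Hspb1 by -0.49, -0.46 and 0.78. Hspa8 differed by -0.61, -0.29 and 0.09, Hsp90ab1 by -0.59, -0.26 and 0.11, and Dnajb1 by -0.26, -0.21 and 0.09. Replicate 3 thus had the opposite sign for these 5 genes and for Hspa1a (-0.30, -0.39 and 0.43). When replicate number 3 was left out of both groups and the block kept, edgeR called 4 of 10 members lower in congested kidney: Hspa8 (log2 fold change -0.45), Hsp90ab1 (-0.42), Hspb1 (-0.48) and Hspe1 (-0.77). That fit rests on 4 libraries and called 37.8% of all genes, so the members' share was near the background. Without number 1 or without number 2 in the same fit, 0 of 10 members were called.

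**Figure D3:**
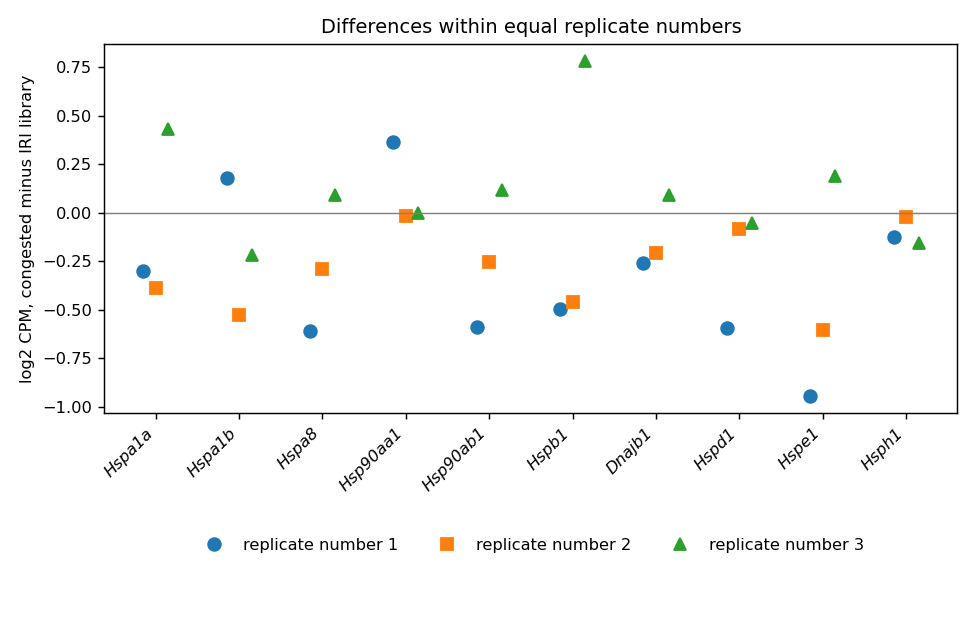
The vertical axis gives the log2 CPM of the congested library minus that of the IRI library with the same replicate number, with 1 symbol per number and the genes along the horizontal axis. Replicates 1 and 2 lie mostly below 0, and replicate 3 lies above 0 for 7 of the 10 genes.

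Between the replicate numbers, with the group held in the model, edgeR called 1 of 10 members, Hspb1, against 8.01% of all tested genes, a share near that background. Hspb1 differed by -0.98 on the log2 scale between numbers 2 and 1 and by -1.82 between numbers 3 and 1 (edgeR adjusted p = 0.0342). Many cell type markers also differed between the numbers: all 6 injury markers and all 5 tested neutrophil markers were called in this test. So were 3 of 5 collecting duct, 4 of 9 proximal tubule and 2 of 4 thick ascending limb markers. Of the endothelium, macrophage and podocyte lists, 1 of 6, 1 of 8 and 0 of 4 were called. The part of these markers in the level of Hspb1 was not tested. Without number 1 the call of Hspb1 was lost (edgeR adjusted p = 0.401).

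Hsp90aa1 was next, with differences of -0.84 and -0.98 of numbers 2 and 3 from number 1 (edgeR adjusted p = 0.0637). It was called when DESeq2 was used (DESeq2 adjusted p = 0.00227), where 13.1% of all genes were called. It was also called when the length and GC trend was removed (edgeR adjusted p = 0.0307), along with 2092 of 14274 genes in all. With no filter on low counts it was called as well (edgeR adjusted p = 0.00259), where 3231 of 26971 genes were called. The other 8 members had edgeR adjusted p-values from 0.216 for Hspa1b to 0.868 for Hsph1. Without number 3, where 2 numbers remain, 6 of 10 members were called, Hspa1a, Hspa1b, Hsp90aa1, Hsp90ab1, Hspb1 and Hspe1, where 36.5% of all genes were called.

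Levels of different genes were compared per kilobase of the longest annotated transcript. Hspa8 was the highest at a mean of 655 CPM per kb (range 498 to 860 over the 6 libraries), followed by Hsp90ab1 at 606 (436 to 756), Hspd1 at 351 (299 to 451), Hsp90aa1 at 235 (173 to 386) and Hspe1 at 186 (126 to 331). Far below came Hsph1 at 45.7 CPM per kb (41.0 to 48.5), Hspb1 at 44.7 (15.4 to 87.9), Dnajb1 at 20.9 (18.5 to 24.5), Hspa1b at 11.5 (6.97 to 14.1) and Hspa1a at 2.85 (1.90 to 3.99). Ranges overlapped between Hspa8 and Hsp90ab1, between Hsp90ab1 and Hspd1, among Hspd1, Hsp90aa1 and Hspe1, between Hsph1 and Hspb1, and between Hspb1 and Dnajb1. They did not overlap between Hspe1 and Hsph1, between Dnajb1 and Hspa1b, or between Hspa1b and Hspa1a. Reads of the stretches that Hspa1a and Hspa1b share may have been split or dropped, so their levels and their order here are uncertain. Hspa8, Hsp90aa1, Hsp90ab1 and Hspd1 made 89.8% to 91.7% of the members' summed CPM in every library.

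**Figure D4:**
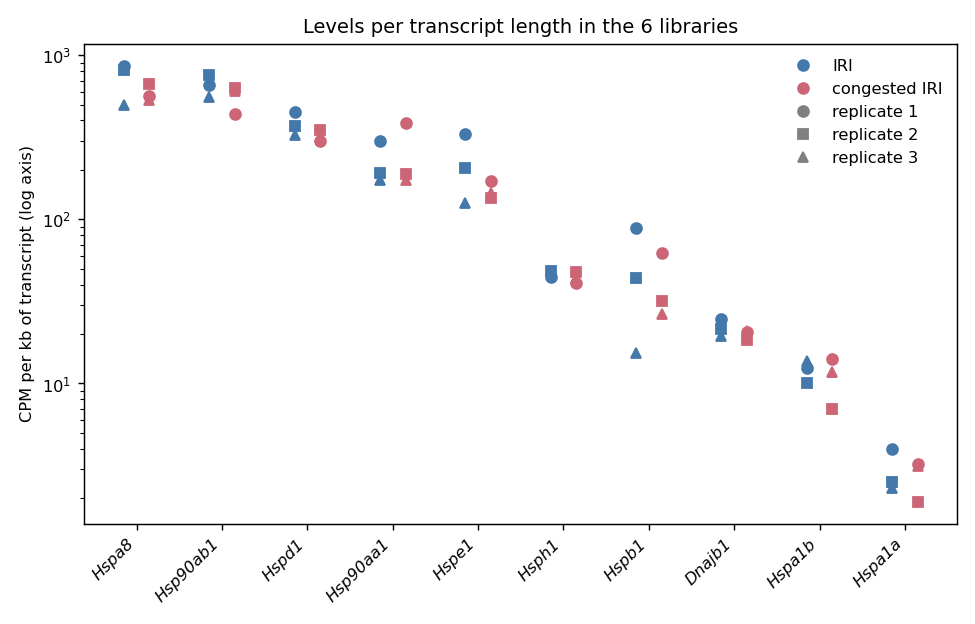
The vertical axis, on a log scale, gives CPM per kb of the longest annotated transcript in each of the 6 libraries, coloured by group and shaped by replicate number, with genes ordered by their mean. Constitutive Hspa8 and Hsp90ab1 stand at 436 to 860 CPM per kb, and the inducible Hspa1a and Hspa1b at 1.90 to 14.1. Levels of Hspa1a and Hspa1b are uncertain, as reads of stretches they share may be split or dropped.

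Other chaperone genes, in 10 lists of 89 genes of which 82 were tested, also held 0 calls in edgeR with or without the block. Of these 82 genes 24 lay above 0 and 58 below, with a median log2 fold change of -0.16; 2 (2.44%, against 2.0% of all genes) had an unadjusted p under 0.05 without the block and 3 (3.66%, against 7.06%) with it. The heat shock factor genes Hsf1 and Hsf2, the transcription factors of the response, had log2 fold changes of -0.03 and -0.12 (edgeR adjusted p = 0.978 and 0.942). Hsf1 held 24.0 to 27.1 CPM in the 6 libraries. The other HSP70 and HSP110 genes lay below 0 for 7 of 10 tested members (median -0.12), with Hspa13 at 0.41 and Hspa14 at -0.34. Both other HSP90 genes lay below 0, Hsp90b1 of the endoplasmic reticulum at -0.28 and mitochondrial Trap1 at -0.15.

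Cochaperones were spread over both signs. Of J-domain genes 9 of 15 lay below 0 (median -0.10), with Dnajc7 at -0.45 and Dnajc5, which acts on synaptic and secretory vesicles, at 0.29. Of HSP70 exchange factors and adaptors 6 of 10 lay below 0 (median -0.13). Bag1, a nucleotide exchange factor of HSP70, was the member with the smallest p, at 480, 470 and 245 CPM in IRI against 238, 234 and 255 CPM in congested kidney. Its log2 fold change was -0.72 (standard error 0.30, edgeR adjusted p = 0.933), and Bag5 followed at -0.39. Of HSP90 cochaperones 10 of 14 lay below 0 (median -0.17), with Nudc at -0.59 and the kinase-specific Cdc37 at -0.47. With total-count scaling the median of all tested genes was 0.10. The medians of the heat shock factor, J-domain and heat-induced lists were then 0.03, 0.01 and 0.02, above 0 but below that of all genes. Values given below for that scaling stand beside the same 0.10.

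All 10 tested mitochondrial chaperone and protease genes lay below 0 (median -0.24; 8 of 10 and -0.13 with total-count scaling). Hscb, a J-domain protein of iron-sulphur cluster assembly, held 26.0, 22.7 and 19.2 CPM in IRI and 12.9, 14.3 and 18.2 CPM in congested kidney, without overlap. Its log2 fold change was -0.58 (standard error 0.23, edgeR adjusted p = 0.933), and that of Grpel1, the exchange factor of mitochondrial HSP70, was -0.57. All 8 subunits of the cytosolic chaperonin TRiC also lay below 0 (median -0.28; 7 of 8 and -0.15 with total-count scaling), with Cct3 at -0.33 and Cct7 at -0.31. The TRiC median was -0.54, -0.26 and 0.16 within replicates 1, 2 and 3 and -0.17 with the length and GC trend removed.

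Small heat shock proteins other than Hspb1 had a median of 0.28 over 5 tested genes, with 3 above and 2 below 0. Their medians within replicates 1, 2 and 3 were -0.02, 0.19 and 0.34. The 7 such genes in the count table summed to 444, 517 and 393 CPM in IRI and to 384, 270 and 442 CPM in congested kidney. Hspb6, a form abundant in muscle, held 14.8, 16.5 and 13.3 CPM in IRI and 20.9, 18.8 and 16.9 CPM in congested kidney, without overlap (log2 fold change 0.34, standard error 0.20, edgeR adjusted p = 0.933). Hspb2 stood at -1.16 at levels of at most 1.99 CPM. Other genes induced by heat shock lay below 0 for 12 of 18 (median -0.09), with Zfand2a, an arsenite- and heat-induced proteasome adaptor, at 0.35 and Ahsa1, the activator of the HSP90 ATPase, at -0.30. Like Hspb6, Dnajc5 and Zfand2a were higher in congested kidney without overlap, and Hscb was lower. All were named for a small p, and groups were free of overlap for 6.49% of all tested genes. Between the replicate numbers 5 of these 82 genes, or 6.1% against 8.01% of all tested genes, were called: Bag2, Cct5, Ier5, Cacybp and Hmox1. Hmox1, haem oxygenase 1, stood at 875, 127 and 42.1 CPM in IRI and 632, 161 and 77.1 CPM in congested replicates 1, 2 and 3 (edgeR adjusted p = 0.00283 between numbers).

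The genes whose pattern over the 6 libraries was most like the members' mean standardized log2 CPM were Ppcs, Pdcd6, Xpa, Slc7a6os and Ttc1, with Pearson r of 0.999, 0.998, 0.998, 0.996 and 0.996 among 10966 genes whose mean reached 5 CPM. These r values describe 6 libraries that share 2 groups and 3 numbers. The members' mean profile was highest in IRI replicate 1, at 1.08 standard deviations, then 0.33 in IRI replicate 2 and -0.48 to -0.12 in the other 4. Ppcs followed it with 111, 66.5 and 36.5 CPM in IRI and 46.2, 36.7 and 40.8 CPM in congested kidney.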

How the data were processed

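Polyadenylated RNA of 6 kidney cortex libraries was prepared with a stranded kit, per the labels' protocols. The authors deposited whole-number counts per gene symbol, not normalized, with 1 column per library. Per the submitters' processing notes, the build was GRCm38 and the tools included STAR 2.7.10a, featureCounts and Subread; for annotation, strand setting and multimapping rules the sources used here give nothing. The test was that of edgeR 4.0.16, run in R 4.3.3 (TMM, filterByExpr with minimum count 10 and total 15, robust quasi-likelihood F test, group as term), and p-values were adjusted by Benjamini-Hochberg over 14274 genes. Standard errors are the log2 fold change over the root of F, and 95% intervals use the fit's degrees of freedom. Log2 CPM used a prior count of 2. Replicates of a group differed beyond sampling noise (chi-square per degree of freedom 17.2 to 175).

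The labels give both groups the numbers 1 to 3 without saying what a number shares. Deviations from the group means correlated at 0.724, 0.342 and 0.429 between equal numbers 1, 2 and 3. Libraries numbered 1 correlated at -0.628 to -0.426 with those of other numbers in the other group. Deviations add up to 0 over the 3 libraries of a group, so these negative values go with the 0.724 and are no separate evidence. IRI replicate 2 correlated with congested replicate 3 at 0.401, and IRI replicate 3 with congested replicate 2 at 0.249. Number 1 was thus set apart, but numbers 2 and 3 were not told apart. The main test took no account of the numbers. Alternatives were other scaling factors and filters, DESeq2 1.42.0, limma-voom 3.58.1, the block, left-out libraries, and an offset for each library's trend over transcript length and GC content (mgcv 1.9.3). Lengths came from GENCODE for GRCm38, which matched 95.5% of tested genes. Each fit was tested on 1 draw of simulated data with known changes, made from that fit's own model and spread. The fit of the group alone found 3% of 2-fold and 67% of 4-fold changes, and 10 of its 80 calls were unchanged genes. With the replicate block the shares were 55% and 98%, and 27 of 180 calls were unchanged genes. With 3% of 2-fold changes found by the fit of the group alone, a lack of calls in the main test does not exclude 2-fold differences. The members, gene lists and named genes (all members; called genes or the 2 with the smallest p per list; 5 genes most alike and a mean of 5 CPM or more) were chosen with earlier results of these data known.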

Additional observations from a re-analysis of the deposited data

How the results depend on the processing

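In edgeR 0 genes and 0 members were called between the groups under each scaling, each filter, limma-voom, DESeq2 without the block and each single library left out. With the replicate block edgeR called 0 genes and 0 members, and the block changed no other call; DESeq2 with the replicate block called 8 genes and 0 members. With a replicate number left out of both groups under the block, the called genes ranged from 9 (without number 2) over 12 (without number 1) to 5457 (without number 3), and the called members from 0 to 4; these fits rest on 4 libraries, and the cause was not tested. Of 140 member values under other settings 136 kept their direction and their side of the threshold. The 4 that turned were Hspa1a (0.0264) and Hsph1 (0.00143) with total counts and Hspb1 with the length and GC trend removed (0.20, and 0.29 with the block). With total counts the median of all tested genes was itself 0.0954. With libraries left out, 76 of 90 member values kept both, 10 turned and 4 passed the threshold. With a number left out under the replicate block, Hspa1a turned to 0.0294 and 0.0601 without numbers 1 and 2, Hspb1 to 0.154 and 0.126, and Hsp90aa1 to -0.00468 without number 1. Over all fits with a library or number left out, the log2 fold changes ranged from -0.35 to 0.20 for Hspa1a (-0.23 to 0.20 with single libraries left out), -0.37 to 0.10 for Hspa1b, -0.29 to 0.46 for Hsp90aa1 and -0.75 to 0.45 for Hspb1. Those of the other 6 members stayed below 0, from -0.83 to -0.13 for Hspe1, -0.51 to -0.09 for Hspa8, -0.42 to -0.07 for Hsp90ab1, -0.35 to -0.06 for Hspd1, -0.23 to -0.03 for Dnajb1 and -0.16 to -0.05 for Hsph1.

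Genes called between replicate numbers were 1144, but 1863 with DESeq2 and the replicate block, 2092 with the length and GC trend removed, 3231 with no filter, and 159, 2093 and 5270 without numbers 1, 2 and 3. The called members, 1 in the main setting, were 2 with DESeq2, with the trend removed or with no filter, and 0 to 6 with a number left out. Depth limits Hspa1a most, at 78 counts in its lowest library. With 3 libraries a group, the intervals of Hspb1 still include a log2 change of 1.11 up or -1.68 down.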
